A study of Mus musculus with 10 samples.

Results

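The genes described here are 33 interferon-induced genes out of the 54408 genes to which the deposited transcript counts were assigned. They were taken from a list of gene names drawn up with earlier results of these data known. The list itself uses no measured value. It holds 24 genes known for induction by type I interferon. A further 8 are GTPases of the guanylate-binding protein (GBP) and immunity-related GTPase (IRG) families, known for induction by interferon gamma. Irf1, which answers to both, was counted in neither group. Genes of either group may also answer to the other interferon, so the groups do not separate the signals of both. All 33 had enough counts to enter the test across 13081 genes.

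The RNA came from P14 CD8 T cells, which carry a T cell receptor for the gp33 peptide, sorted out of B16-gp33 melanomas, a mouse tumour line that presents this peptide. Cells of both genotypes were of C57BL/6 strain with both Nfat5 alleles floxed (flox/flox). The 5 libraries called NFAT5 KO also carried CD4-Cre (CD4-Cre+/-), a transgene which acts in T cells from their development in the thymus, and the 5 libraries called WT carried none (CD4-Cre-/-), so that floxed alleles are shared by both groups and Cre itself is not. The T cells were activated for 48 hours in culture, 5000000 were transferred into tumour-bearing mice, and the CD8 T cells in the tumours were collected 7 days later. The sources used here do not give the age or sex of the mice or say whether each library is a separate mouse, so that p-values measure only the spread between these libraries.

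Type I interferons bind the receptor made of IFNAR1 and IFNAR2, and interferon gamma binds the receptor made of IFNGR1 and IFNGR2. Both signal through Janus kinases: type I interferons mainly through the ISGF3 complex, to which STAT2 and IRF9 belong and which binds interferon-stimulated response elements (ISRE), and interferon gamma mainly through gamma-activated sites (GAS) in its target promoters. CD8 T cells both make interferon gamma and respond to both kinds of interferon, and the genes induced include antiviral effectors, RNA sensors, feedback regulators and the GTPases that attack the vacuoles of intracellular microbes.

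The promoters of 4 of the genes show the letters of such elements. They were chosen because Rsad2 is among the genes lower in NFAT5 KO libraries, Gbp2 and Irf1 are the 2 that are higher, and Isg15 is the namesake of the type I response whose level did not pass the test. Each line gives 200 bases of the RefSeq promoter window (build GRCm38.p6), 5′ to 3′ along the gene, from 150 bases before the annotated transcription start to 50 bases after it. Capitals mark matches to an ISRE-like motif, GAAANNGAAA (TTTCNNTTTC on the other strand), or to a GAS-like motif, TTCNNNGAA, which reads the same on both strands. The Rsad2 stretch is at chr12:26456403-26456602 on the minus strand, that of Isg15 at chr4:156200769-156200968 on the minus strand, that of Gbp2 at chr3:142620513-142620712 on the plus strand and that of Irf1 at chr11:53769864-53770063 on the plus strand.
Rsad2: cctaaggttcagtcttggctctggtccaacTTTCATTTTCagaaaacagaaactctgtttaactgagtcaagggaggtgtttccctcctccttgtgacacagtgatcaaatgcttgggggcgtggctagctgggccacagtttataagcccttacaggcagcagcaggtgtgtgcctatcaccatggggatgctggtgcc
Isg15: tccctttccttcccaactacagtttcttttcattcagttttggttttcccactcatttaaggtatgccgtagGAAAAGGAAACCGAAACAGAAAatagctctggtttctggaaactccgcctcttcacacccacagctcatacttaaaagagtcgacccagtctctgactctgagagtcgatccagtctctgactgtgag
Gbp2: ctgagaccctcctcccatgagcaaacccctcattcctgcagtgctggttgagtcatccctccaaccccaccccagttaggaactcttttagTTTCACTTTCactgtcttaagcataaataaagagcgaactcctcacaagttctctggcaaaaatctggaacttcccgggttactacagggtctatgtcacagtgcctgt
Irf1: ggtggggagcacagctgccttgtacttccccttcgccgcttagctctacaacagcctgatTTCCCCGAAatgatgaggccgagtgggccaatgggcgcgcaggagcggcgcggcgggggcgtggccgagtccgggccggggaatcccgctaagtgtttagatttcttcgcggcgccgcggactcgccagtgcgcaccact
The Rsad2 window had 1 ISRE-like match at positions -120 to -111, and that of Gbp2 had 1 at -59 to -50. The Isg15 window had 3 overlapping ISRE-like matches between -78 and -57. The Irf1 window had no ISRE-like match and 1 GAS-like match at -90 to -82.

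RefSeq windows of 300 bases, from 250 before the start to 50 after it, were matched by symbol to 27 of the 33 genes. Several windows were found for 5 of them. An ISRE-like match was found for 15 of the 27, and for 1079 of 27025 genes with a window (3.993%). By group these were 9 of 19 type I genes and 6 of 7 GBP and IRG genes. A GAS-like match was found for 9 of the 27, among them 5 type I genes, 3 GTPases (Igtp, Gbp5 and Gbp7) and Irf1, against 9.554% of all genes with a window. In 5 genes a window held both motifs, beside 146 of 27025 genes with a window (0.54%). In Bst2 a GAS-like match overlapped an ISRE-like one. Cmpk2, Xaf1 and Irf7 were among 8 genes that held neither sequence in any window. Of the genes that are lower in NFAT5 KO libraries, Rsad2 had a match, Cmpk2 and Xaf1 had none, and Ifi27l2a had no window. The others without a window were Mx1, Usp18, Rtp4, Zbp1 and Gbp4. A match is a description of letters only.

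**Figure D1:**
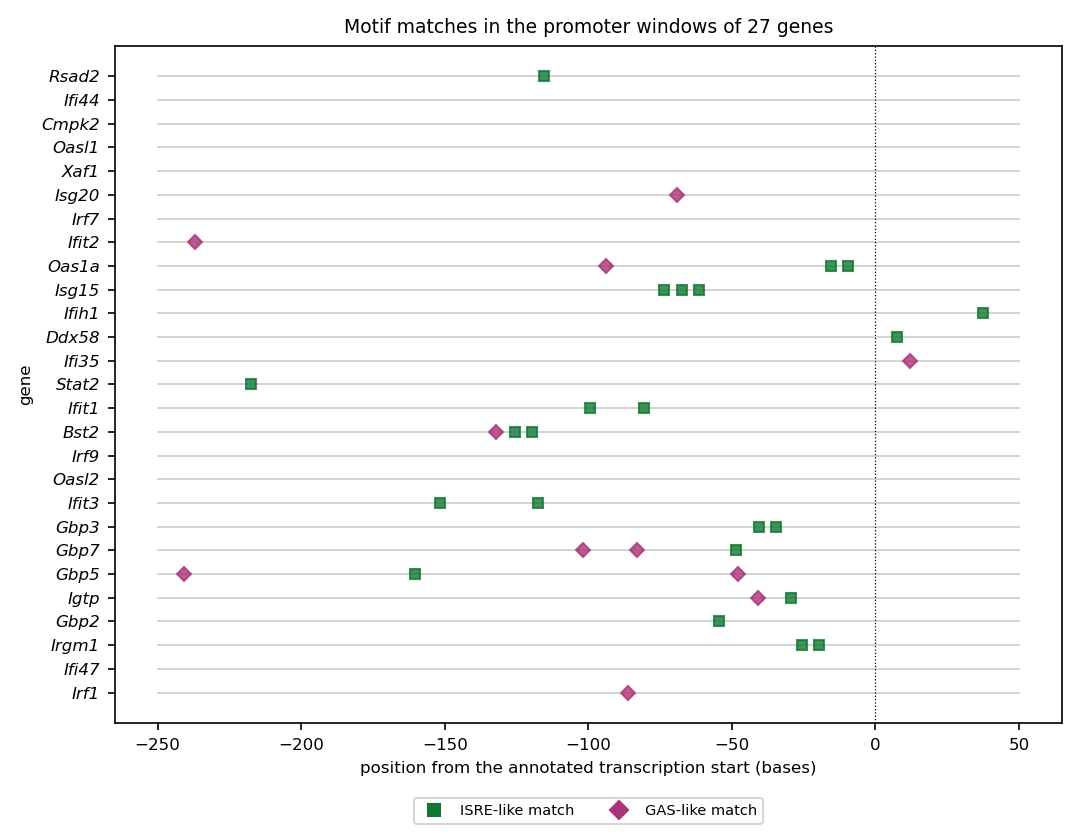
Positions of ISRE-like (squares) and GAS-like (diamonds) matches in the RefSeq promoter windows of 27 genes, one grey line per gene, type I genes at the top and Irf1 at the bottom; the x axis gives the distance from the annotated transcription start in bases and the dotted line marks the start. Matches were found in 15 genes for the ISRE-like and in 9 genes for the GAS-like motif, and 8 lines are empty. For genes with several windows only the first is drawn.

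Depth was even, with 22444310 to 32001285 estimated counts per library. The genotype call of the libraries rests on the labels. Levels are given in CPM, a gene's counts as a rate over the counts of the tested genes in its library, scaled between libraries. Nfat5 itself was measured at 18.0, 17.2, 18.3, 9.20 and 14.2 CPM in WT 678_2, WT 678_4, WT 679_3, WT 679_4 and WT 679_5. In NFAT5 KO 678_3, NFAT5 KO 678_5, NFAT5 KO 678_6, NFAT5 KO 679_2 and NFAT5 KO 679_6 it was at 12.2, 12.6, 11.6, 26.8 and 11.9 CPM. Its summed count did not pass the test (log2 difference -0.04 ± 0.27 SE, edgeR adjusted p = 0.957), NFAT5 KO 679_2 had the highest value of all 10 libraries, and the labels do not say which exons are floxed, so this count does not check the labels. Values are listed below in this order of libraries. The 8 T cell markers, Cd8a and Cd8b1 included, were abundant in every library, with sums of 8493 to 9575 CPM in WT against 9353 to 9899 CPM in NFAT5 KO, and 2 of the 8, Trac and Cd2, passed the test as higher in NFAT5 KO libraries (log2 differences 0.50 and 0.46). Markers of 12 macrophage genes summed to 70.5 to 142 CPM in the WT libraries and 37.0 to 76.1 CPM in NFAT5 KO libraries. Adgre1 was the 1 macrophage marker of 12 that passed the test (lower), C1qc was at 0 counts in NFAT5 KO 678_5, 678_6 and 679_2, and Adgre1 was at 0 in NFAT5 KO 678_3, 678_5 and 678_6. Itgam was higher on average in NFAT5 KO, at 13.3 CPM against 11.1 CPM in WT, and did not pass. The 10 dendritic cell markers summed to 109.8 to 190.2 CPM in WT against 157 to 236 CPM in NFAT5 KO. Itgax was the largest part of this sum in every library (mean 96 CPM for WT, 139.7 CPM for NFAT5 KO), and Siglech was at 0 throughout. The log2 differences had both signs: 0.54 for Itgax, 1.09 for Xcr1 and 1.10 for Zbtb46, but -1.04 for Cd74 and -0.475 for H2-Ab1. None of these passed, so the sum does not describe a shift shared by the dendritic cell markers. The 7 melanoma markers stayed at or below 4.27 CPM in sum. Mitochondrial transcripts made up 0.63% to 1.04% of the counts in WT and 0.47% to 1.36% in NFAT5 KO libraries.

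The interferon-induced genes did not move as 1 block. Among the 24 type I genes, 4 fell in NFAT5 KO libraries (Ifi27l2a, Cmpk2, Rsad2 and Xaf1) and 0 rose, at an adjusted p under 0.05 in edgeR's quasi-likelihood test, beside 5.63% of all 13081 genes tested that were lower and 3.38% that were higher. Among the 8 GBP and IRG genes, 1 (Gbp2) rose and 0 fell. Irf1 rose. The median log2 difference, NFAT5 KO minus WT, was -0.17 over the type I genes, 0.29 over the GTPases and 0.02 over all genes tested. In 5 type I genes every NFAT5 KO library lay below every WT library, against 6.41% of all genes, and in Gbp2 and Irf1 every NFAT5 KO library lay above, against 3.92% of all genes. In bulk RNA, fewer cells that express a gene and less RNA per cell cannot be told apart.

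**Figure D2:**
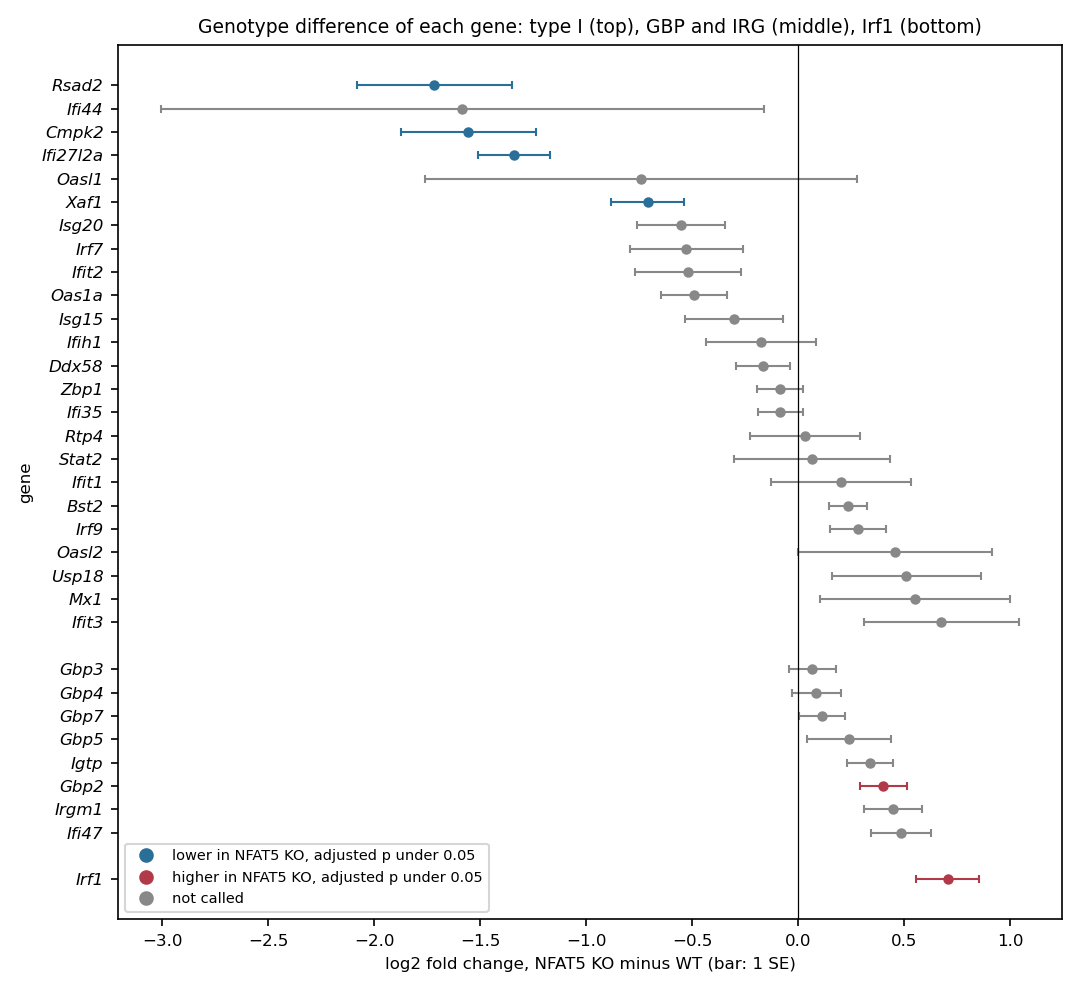
Difference of each gene between genotypes, on the x axis as log2 fold change (NFAT5 KO minus WT) with a bar of 1 standard error; rows are the 24 type I genes (top), the 8 GBP and IRG genes (middle) and Irf1 (bottom), and colour marks an edgeR adjusted p under 0.05. Type I genes lie on both sides of 0, from -1.72 for Rsad2 to 0.67 for Ifit3, while the GBP and IRG genes lie between 0.07 and 0.48.

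Ifi27l2a, a small membrane protein of mitochondria and the nuclear envelope, was the gene of the list with the highest level per length in WT libraries. It was measured at 280.2, 245, 246, 416 and 190 CPM in the WT libraries and at 111, 98.8, 112, 103 and 118 CPM in the NFAT5 KO libraries. All 5 NFAT5 KO values lay in a narrow band below the lowest WT library, and the WT libraries were the more scattered, with 679_4 highest. The means were 276 ± 84.8 and 109 ± 7.79 CPM (SD, n = 5 each), a log2 difference of -1.34 ± 0.17 SE with an edgeR adjusted p of 0.000597. Per length the level went from 1044 ± 290 TPM (counts scaled for transcript length and library total) in WT to 414 ± 17.9 TPM in NFAT5 KO, still the highest of the type I genes in both genotypes. Ifi27l2a-201 was the only transcript assigned to this gene, so shares of transcripts cannot be compared.

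Cmpk2 and Rsad2 are neighbours on chromosome 12, transcribed away from each other with 12752 bases between their starts (GRCm38; Cmpk2 26469204 to 26479837 on the plus strand, Rsad2 26442746 to 26456452 on the minus strand). Cmpk2 is a mitochondrial nucleotide kinase, and Rsad2 encodes viperin, the enzyme that turns CTP into an antiviral nucleotide. Cmpk2 was at 21.9, 22.8, 33.8, 54.6 and 19.1 CPM across the WT libraries and at 7.62, 8.57, 15.8, 7.40 and 12.4 CPM in NFAT5 KO libraries. Every NFAT5 KO value was below the lowest WT value, and WT 679_4 again stood highest. The log2 difference was -1.56 ± 0.32 SE (edgeR adjusted p = 0.00875), from 30.4 ± 14.6 to 10.4 ± 3.64 CPM (SD, n = 5 each).

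Rsad2 was at 8.31, 9.50, 8.47, 20.8 and 7.18 CPM across the WT libraries and at 1.83, 2.89, 5.07, 2.57 and 4.14 CPM in NFAT5 KO libraries. The groups did not overlap, and the order of the NFAT5 KO libraries resembled that of Cmpk2, with 678_6 and 679_6 the highest in both genes. Its log2 difference, -1.72 ± 0.37 SE (edgeR adjusted p = 0.0112), was the largest of the list. Without WT 679_4, its highest library, Rsad2 and Cmpk2 still passed the test, as they did in each of 10 fits that left out 1 library. The main coding transcripts carried the difference: Rsad2-201, with 87.3% of the TPM of the gene, went from 2.90 ± 1.42 to 0.841 ± 0.277 TPM, and Cmpk2-201, with 86.9%, from 11.2 ± 5.00 to 3.85 ± 1.30 TPM (SD, n = 5 each).

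Xaf1, an antagonist of the apoptosis inhibitor XIAP, was at 39.6, 38.1, 32.7, 52.3 and 31.8 CPM across the WT libraries and at 22, 20.8, 31.2, 20.2 and 24.8 CPM in NFAT5 KO libraries. The groups did not overlap, but NFAT5 KO 678_6 came within 1 CPM of the lowest WT library. The log2 difference was -0.71 ± 0.17 SE (edgeR adjusted p = 0.022). It no longer passed without WT 678_2 (adjusted p = 0.057) or without NFAT5 KO 679_2 (adjusted p = 0.0524), with 8 of 10 such fits passing, and it did not pass with an offset for transcript length (-0.62, adjusted p = 0.0676) or with the mean log2 CPM of melanoma markers as a covariate (-0.66, adjusted p = 0.0535). Its transcripts were lower together: Xaf1-202 (coding) had 28.6 ± 3.79 TPM in WT and 20.2 ± 4.19 in NFAT5 KO, Xaf1-201 (annotated as a target of nonsense-mediated decay) 19.1 ± 5.58 and 12.8 ± 3.39, and Xaf1-204 (coding) 9.38 ± 1.98 and 5.35 ± 1.2 (SD, n = 5 each).

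Within each label prefix, 678 or 679, whose meaning is not given, the differences of the genes that passed kept their sign but none passed alone, with 2 WT against 3 NFAT5 KO libraries in prefix 678 and 3 against 2 in prefix 679. The log2 difference was -1.30 and -1.37 for Ifi27l2a in prefix 678 and 679, -1.07 and -1.87 for Cmpk2, -1.45 and -1.87 for Rsad2, and -0.66 and -0.80 for Xaf1. No gene of the whole table had an interaction of genotype with prefix past the threshold (0 of 13081, with 377 at an unadjusted p under 0.05). The sum of the macrophage markers was mostly lower in NFAT5 KO libraries, the direction of these 4 genes, with overlapping ranges and Itgam going the other way. With the mean log2 CPM of the macrophage markers as a covariate, which left 27 genes called in the whole table, the log2 differences were -1.31 for Ifi27l2a (edgeR adjusted p = 0.08), -1.57 for Cmpk2 (0.311), -1.95 for Rsad2 (0.235) and -0.83 for Xaf1 (0.288). None passed, and the sizes were similar to those without the covariate. The markers went partly with genotype, so macrophage RNA and genotype cannot be told apart in this fit.

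The other effectors that act on RNA, nucleotides or translation did not pass the test and had both signs. Oas1a, which makes the second messenger that activates RNase L, was at 16.4, 16.2, 16.2, 16.7 and 16.1 CPM across the WT libraries and at 11.9, 10.3, 9.77, 14.6 and 11.4 CPM in NFAT5 KO libraries. All NFAT5 KO libraries lay below all WT libraries, which were nearly level, yet the edgeR adjusted p was 0.0695 (log2 difference -0.49 ± 0.16 SE). It passed without NFAT5 KO 679_2 (0.0393), the 1 of 10 fits with 1 library left out that did. It also passed with the DESeq2 Wald test on all libraries (adjusted p = 0.0117). That test called 1893 genes in the whole table, against 1179 with edgeR. The RNA-degrading exonuclease Isg20 had a log2 difference of -0.55 (adjusted p = 0.124). The Ifit genes, whose proteins bind viral RNA ends, are neighbours on chromosome 19 and did not go together: Ifit2 was at -0.52 ± 0.25 SE, Ifit1 at 0.20 ± 0.33 and Ifit3 at 0.67 ± 0.37 on the log2 scale, none of which passed. Ifit3 was highest in NFAT5 KO 679_6 (24.9 CPM) and low in NFAT5 KO 678_3 (7.42 CPM), and its near-identical copy Ifit3b makes the split of reads between them uncertain.

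Mx1, a gene of the dynamin-like GTPase family, stood at 3.60 ± 2.34 CPM in WT against 5.28 ± 1.26 CPM in NFAT5 KO (log2 difference 0.55, adjusted p = 0.505). The largest share of its TPM (33.7%) was Mx1-205, annotated as a target of nonsense-mediated decay, so these counts do not show functional protein. Oasl1 and Oasl2, OAS-like proteins, and Ifi44 had low counts. Oasl2 had 24 to 116 counts per library and did not pass (log2 difference 0.46 ± 0.46 SE, adjusted p = 0.602). Ifi44 was at 0 counts in WT 678_2 and in the NFAT5 KO libraries other than 679_6, where it had 1.13 CPM, and the 3 counts that a count of 0 allows correspond to 0.0955 to 0.134 CPM depending on the library (counting error only). Its log2 difference of -1.58 had a standard error of 1.42 (adjusted p = 0.549). NFAT5 KO 679_6 decides this value: without it every NFAT5 KO library is at 0, and the fitted difference, which then depends on the prior count, was -7.29 (adjusted p = 0.0503). Oasl1 was at 0 in WT 679_3 and in NFAT5 KO 678_3 and at 0.939 to 2.90 CPM in the others.

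None of the 3 cytosolic sensors passed the test. Ddx58 (RIG-I), which senses viral RNA ends, was at 65.7, 60.7, 52.3, 66.2 and 56.0 CPM across the WT libraries and at 42.8, 54.2, 66.5, 50.5 and 54.0 CPM in NFAT5 KO libraries. The groups overlapped, with NFAT5 KO 678_6 above every WT library and 678_5 and 679_6 above WT 679_3 (log2 difference -0.17 ± 0.13 SE, adjusted p = 0.466). Ifih1 (MDA5), the sensor of long double-stranded RNA, had a log2 difference of -0.18 and Zbp1, which senses Z-form nucleic acids, one of -0.08, and neither passed. Zbp1 was the most abundant of the 3 per length, with 128 ± 16.8 TPM in WT and 116 ± 3.76 TPM in NFAT5 KO.

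The ubiquitin-like modifier Isg15 and the protease Usp18, which removes it from proteins and damps the type I receptor, had log2 differences of opposite sign that did not pass. Isg15 was at 12.3, 16.8, 8.31, 16.6 and 10.4 CPM across the WT libraries and at 7.33, 10.3, 11.4, 12.1 and 10.9 CPM in NFAT5 KO libraries, and the ranges overlapped (log2 difference -0.30 ± 0.23 SE, edgeR adjusted p = 0.471). Usp18 was at 12.3, 27.1, 7.71, 16.4 and 21.4 CPM across the WT libraries and at 12.7, 39.7, 27.2, 24.7 and 16.4 CPM in NFAT5 KO libraries, with the highest single value in NFAT5 KO 678_5 (log2 difference 0.51 ± 0.35 SE, adjusted p = 0.421).

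Of the remaining membrane and other proteins, none passed. Bst2 (tetherin), which holds budding viruses at the cell surface, ranked second among the type I genes per length, with 171.5 ± 16.3 TPM in WT and 205 ± 16.2 TPM in NFAT5 KO. It was at 88.3, 101.6, 83.1, 87.3 and 85.5 CPM across the WT libraries and at 101.3, 96.9, 99.95, 110.5 and 115.5 CPM in NFAT5 KO libraries. Only WT 678_4 reached into the NFAT5 KO range (log2 difference 0.23 ± 0.09 SE, adjusted p = 0.126). Ifi35 was at 86.3 ± 8.42 and 81.4 ± 9.60 CPM and Rtp4 at 16.8 ± 6.89 and 17.2 ± 2.33 CPM (SD, n = 5 each).

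**Figure D3:**
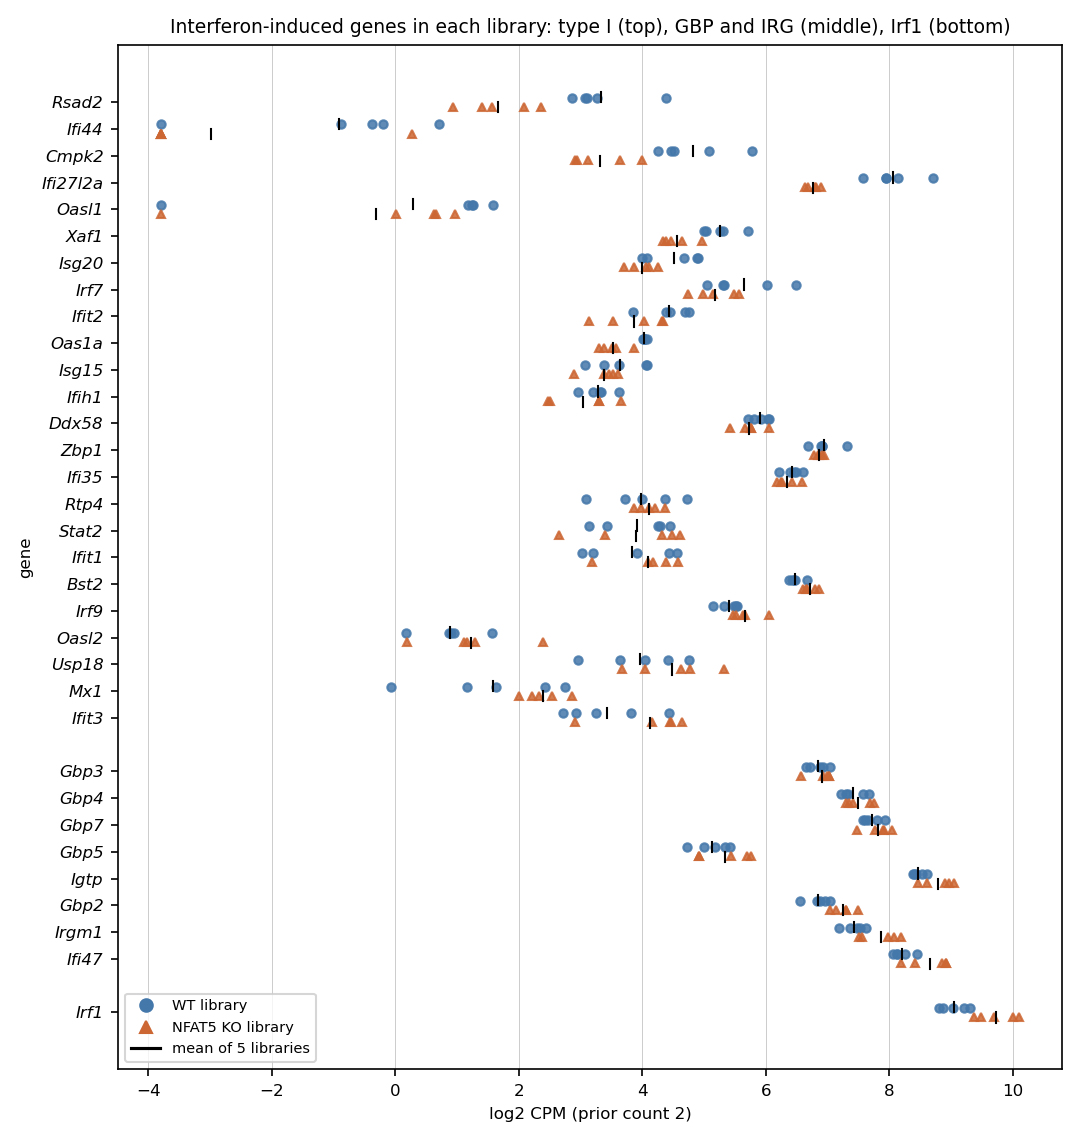
Level of each gene in each library on the x axis as log2 CPM with a prior count of 2, for 5 WT (circles) and 5 NFAT5 KO libraries (triangles); black ticks are the means of 5 libraries, and rows run from the type I genes at the top to Irf1 at the bottom, each group ordered by its log2 difference. The triangles of Rsad2, Cmpk2, Ifi27l2a, Xaf1 and Oas1a all lie left of the circles, and those of Gbp2 and Irf1 all lie right of them, though by little in Gbp2.

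The transcription factors differed from one another. Irf1, an activator that drives many interferon gamma targets, was at 444, 523, 629, 592 and 468 CPM across the WT libraries and at 662, 714, 1023, 1097 and 829.7 CPM in NFAT5 KO libraries. All NFAT5 KO values were above all WT values, and the gap between the groups was narrow, from 629 in WT 679_3 to 662 in NFAT5 KO 678_3. The log2 difference was 0.70 ± 0.15 SE (edgeR adjusted p = 0.0103), it passed in each of 10 fits with 1 library left out, and it was 0.72 in prefix 678 and 0.77 in prefix 679. With the macrophage covariate it was 0.59 (adjusted p = 0.422).

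Irf1 was second of the 33 genes per length in WT libraries and first in NFAT5 KO libraries, with 356 ± 59.0 TPM in WT and 583 ± 141 TPM in NFAT5 KO. The main coding transcript Irf1-202 went from 239 ± 40.7 to 392 ± 93.2 TPM and Irf1-209, annotated as a target of nonsense-mediated decay, from 68.3 ± 13.6 to 116 ± 32.8 TPM (SD, n = 5 each), so both were higher. Irf7, the amplifier of the type I response, was at 39.6, 64.5, 39.8, 90.1 and 33.1 CPM across the WT libraries and at 35.3, 31.5, 26.7, 44.5 and 47.1 CPM in NFAT5 KO libraries. Its groups overlapped widely (log2 difference -0.53 ± 0.27 SE, adjusted p = 0.259), and Phrf1 overlaps it on the other strand. The ISGF3 subunits Irf9 (log2 difference 0.28 ± 0.13 SE, adjusted p = 0.228) and Stat2 (0.06 ± 0.37 SE, adjusted p = 0.941) did not pass, and Irf9 overlaps Rnf31 on the same strand.

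The GBP and IRG genes other than Gbp5 were more abundant per length than most type I genes, and all were higher on average in NFAT5 KO libraries, although only Gbp2 passed the test, all 8 had log2 differences between 0.07 and 0.48, and Gbp4 turned to -0.04 when counts were corrected for transcript length. The guanylate-binding proteins coat and break the vacuoles and membranes of microbes. Gbp2 was at 124, 132, 113, 117 and 93.5 CPM across the WT libraries and at 132.0, 141, 156, 156.5 and 179 CPM in NFAT5 KO libraries. The lowest NFAT5 KO library and the highest WT library were nearly equal, so the groups were apart by the narrowest of margins. The log2 difference was 0.40 ± 0.11 SE (edgeR adjusted p = 0.0389), from 116 ± 14.4 to 153 ± 17.9 CPM (SD, n = 5 each).

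The Gbp2 result rested on the full set of libraries. It passed in 3 of 10 fits with 1 library left out, those without WT 678_4, NFAT5 KO 678_3 or NFAT5 KO 678_5, and missed the threshold without any 1 of the other 7, with adjusted p-values up to 0.115 (without NFAT5 KO 679_6). It was 0.16 in prefix 678 and 0.63 in prefix 679, an interaction of 0.48 with an unadjusted p of 0.0344 and an adjusted p of 1. The other GBP genes did not pass: Gbp5 was at 0.24 ± 0.20 SE, Gbp7 at 0.11 ± 0.11, Gbp4 at 0.08 ± 0.12 and Gbp3 at 0.07 ± 0.11 on the log2 scale. Gbp5, which assembles on membranes and helps to activate the NLRP3 inflammasome, had the largest interaction with prefix among the 8 GTPases, 1.02 (unadjusted p = 0.00556, adjusted p = 1), with a log2 difference of -0.28 in prefix 678 and 0.75 in prefix 679. Gbp2, Gbp3, Gbp5 and Gbp7 lie together on chromosome 3, and Gbp4 on chromosome 5 overlaps Gbp8 and Gbp9 on the same strand. Reads of these similar genes may have been split between copies, so their single values are uncertain.

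The IRG proteins, GTPases that act on the vacuoles of parasites and bacteria, include the most abundant GTPases per length, Ifi47 and Igtp, and all 3 lie on chromosome 11. Ifi47 was at 277, 347, 277, 306 and 265 CPM across the WT libraries and at 340.4, 291, 482, 462 and 484 CPM in NFAT5 KO libraries. NFAT5 KO 678_6, 679_2 and 679_6 were above every WT library and the other 2 were within the WT range (log2 difference 0.48 ± 0.14 SE, edgeR adjusted p = 0.0533). It passed without WT 678_4 (0.0474), NFAT5 KO 678_3 (0.0483) or NFAT5 KO 678_5 (0.0116), and in prefix 679 alone (0.73, adjusted p = 0.0275).

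Irgm1, which regulates the other IRG proteins, was at 163, 196, 177, 184 and 145 CPM across the WT libraries and at 187, 182, 289.8, 268 and 252 CPM in NFAT5 KO libraries. The pattern was that of Ifi47, with 3 libraries above the WT range and NFAT5 KO 678_3 and 678_5 inside it (log2 difference 0.45 ± 0.14 SE, adjusted p = 0.0646). Igtp (IRGM3) was at 345.5, 390.4, 369.5, 336 and 332 CPM across the WT libraries and at 354, 388, 497, 527 and 478 CPM in NFAT5 KO libraries, again with the same 2 NFAT5 KO libraries among the WT values (0.34 ± 0.11 SE, adjusted p = 0.0755). With the DESeq2 Wald test the adjusted p was 0.0139 for Ifi47, 0.0235 for Irgm1 and 0.0376 for Igtp. With limma-voom it was 0.00924, 0.0179 and 0.0347. Both fits called more genes in the whole table, 1893 with DESeq2 and 1540 with limma-voom, against 1179 with edgeR. Igtp overlaps Irgm2 on the same strand, and Ifi47 overlaps Olfr56. Unadjusted p-values under 0.05 were reached by 4 of the 8 GTPases and by 7 of the 24 type I genes, beside 3041 of 13081 genes.

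Set side by side in each library, both groups of genes varied among libraries of 1 genotype as well as between genotypes. The mean log2 CPM of the 24 type I genes was 4.01, 4.42, 3.81, 4.51 and 3.89 in the WT libraries and 3.34, 3.81, 4.01, 3.86 and 4.06 in the NFAT5 KO libraries. These ranges overlapped. For the 8 GTPases it was 7.28, 7.43, 7.28, 7.17 and 7.13 in WT and 7.22, 7.36, 7.64, 7.71 and 7.65 in NFAT5 KO, and here too NFAT5 KO 678_3 and 678_5 lay among the WT libraries. The difference of both means, type I minus GTPases, ran from -3.47 to -2.65 in WT and from -3.88 to -3.55 in NFAT5 KO libraries, and these ranges did not overlap. The type I mean includes the 4 type I genes that fell, and also Ifi44 and Oasl1, which had libraries at 0 counts. The gap therefore does not show a shift shared by all type I genes. This last value is a description of the chosen genes and has no test.

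**Figure D4:**
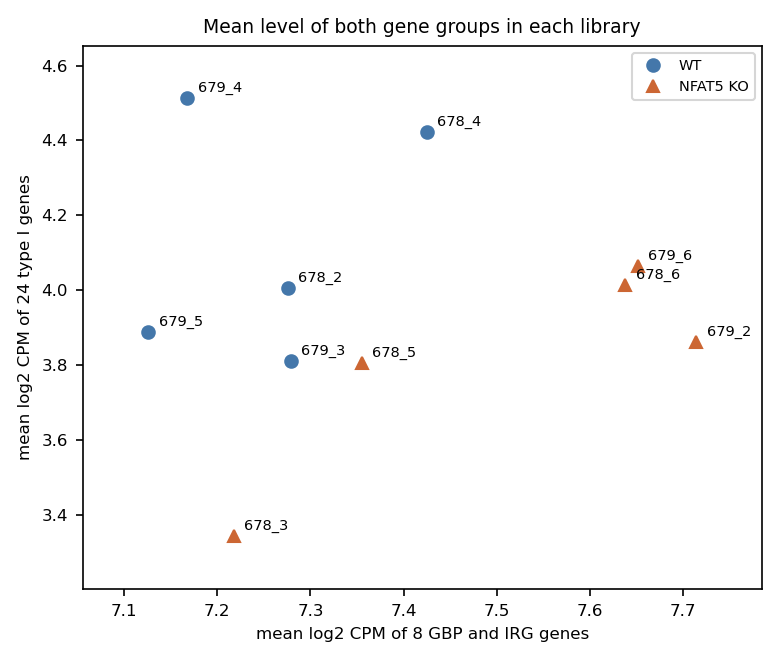
Mean log2 CPM (prior count 2) of the 8 GBP and IRG genes on the x axis and of the 24 type I genes on the y axis, 1 point per library, for WT (circles) and NFAT5 KO (triangles). NFAT5 KO 678_6, 679_2 and 679_6 lie to the right of all WT libraries, WT 679_4 and 678_4 lie above all others, and NFAT5 KO 678_3 is lowest in type I genes at 3.34.

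Single libraries led these means. WT 679_4 was the highest WT library in 11 of 24 type I genes and WT 679_5 the lowest in 11. NFAT5 KO 678_3 was the lowest NFAT5 KO library in 11 of 24 type I genes and in 5 of 8 GTPases, and WT 678_4 was the highest WT library in 7 of 8 GTPases. WT 679_4 was also highest in each of the 4 type I genes that fell. Without WT 679_4, 4 type I genes and 0 GTPases passed, beside 932 of 13343 genes tested. Without NFAT5 KO 678_3 the counts were 4 and 4, beside 1158 of 13404. Without NFAT5 KO 679_2, the library with the highest Nfat5 count, they were 4 and 0, beside 853 of 13386. The 4 type I genes were then not the same, since Oas1a passed and Xaf1 did not.

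The rest of the pathway was read from lists of genes named for their place in it. Of 15 interferon genes only Ifng had enough counts to be tested. Ifng was at 703, 642, 649, 528.5 and 642.5 CPM across the WT libraries and at 647, 585, 747, 615 and 634 CPM in NFAT5 KO libraries, with overlapping ranges (log2 difference 0.03 ± 0.09 SE, edgeR adjusted p = 0.891). Ifnb1 and each of the listed Ifna genes had 0 counts in all 10 libraries, and Ifnz, a type I interferon gene, had 11 counts (0.448 CPM) in NFAT5 KO 678_3 and 0 in the others. These cells thus held abundant interferon gamma mRNA with overlapping ranges in the groups, and Ifnb1 and Ifna mRNA were not detected.

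Of 8 receptor subunits, kinases and STATs, 4 rose in NFAT5 KO libraries and 0 fell, beside 3.38% of all genes tested that were higher and 5.63% that were lower, with a median log2 difference of 0.43. The same shares stand beside the counts of each list that follows. Ifngr1, the ligand-binding chain of the interferon gamma receptor, was at 418, 624, 406, 465 and 417 CPM across the WT libraries and at 676, 1279, 843, 809.5 and 867 CPM in NFAT5 KO libraries. All NFAT5 KO libraries were above all WT libraries (log2 difference 0.94 ± 0.17 SE, adjusted p = 0.00391). Jak2, the kinase of that receptor, was at 89.8, 113, 108, 67.5 and 107 CPM across the WT libraries and at 144, 178, 172, 156 and 162 CPM in NFAT5 KO, likewise without overlap (0.74 ± 0.13 SE, adjusted p = 0.00385).

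Jak1, shared by both receptors, rose by 0.43 ± 0.12 SE (adjusted p = 0.0343) and Ifnar1, a type I receptor chain, by 0.32 ± 0.09 SE (adjusted p = 0.0371) on the log2 scale. Both passed in only 2 of 10 fits with 1 library left out, those without WT 678_4 or NFAT5 KO 678_3 for Jak1 and those without WT 678_4 or NFAT5 KO 678_6 for Ifnar1, while Ifngr1 and Jak2 passed in all 10. With the macrophage covariate none of the 4 passed, and the log2 difference was 0.51 for Ifngr1 (adjusted p = 0.365), 0.64 for Jak2 (0.26), 0.30 for Jak1 (0.678) and 0.27 for Ifnar1 (0.605). The other chains did not pass: Ifnar2 was at 101 ± 11.9 and 101.3 ± 9.05 CPM, and Ifngr2 was near the detection limit at 0.573 ± 0.685 and 0.771 ± 0.643 CPM (SD, n = 5 each).

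Of 7 negative regulators 2 rose and 0 fell. Socs3 rose by 0.47 ± 0.11 SE (adjusted p = 0.0178) and Socs1, which blocks Janus kinases and is itself a target of interferon gamma, by 0.46 ± 0.12 SE (adjusted p = 0.0346). Socs3 lost its call without WT 678_2, NFAT5 KO 678_6 or NFAT5 KO 679_6, and Socs1 kept it only without NFAT5 KO 678_3. With the macrophage covariate neither passed, and the log2 difference of Socs1 was 0.26 (adjusted p = 0.771).

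Among 37 other type I genes tested, 5 fell, 1 rose and 31 did not pass, with a median log2 difference of -0.21. The genes that fell were Parp9, a partner of the ubiquitin ligase DTX3L that fell by 0.52 ± 0.11 SE (adjusted p = 0.0126), Epsti1, which fell by 0.47 ± 0.10 SE (adjusted p = 0.0127), Herc6, the mouse ligase for ISG15, which fell by 0.53 ± 0.13 SE (adjusted p = 0.0273), and Ifi30 and Pml. The count of 5 includes Ifi30, which was placed in this list although it is known for induction by interferon gamma. Ly6a, the surface protein Sca-1, rose by 0.44 ± 0.10 SE (adjusted p = 0.0148). Parp9 and Epsti1 kept their calls in all 10 fits with 1 library left out, Ifi30 in 3 and Pml in 2. Herc6 lost it without WT 678_2, WT 679_3 or NFAT5 KO 679_2, and Ly6a without WT 679_5, NFAT5 KO 678_6 or NFAT5 KO 679_6.

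Among 12 other GBP and IRG genes tested, 4 rose and 1 fell, with a median log2 difference of 0.37. The gene that fell was Iigp1, an effector IRG protein, which was at 30.4, 24.1, 32.2, 34.4 and 22.8 CPM across the WT libraries and at 8.39, 7.36, 15.6, 8.97 and 12.7 CPM in NFAT5 KO libraries. The groups did not overlap, and its log2 difference, -1.44 ± 0.22 SE (edgeR adjusted p = 0.00182), had the sign and size of the differences of Rsad2 and Cmpk2 and not of the other IRG genes. Tgtp1, a T cell IRG protein, was at 131, 151, 145.5, 129.7 and 109.9 CPM across the WT libraries and at 152, 186, 288, 324 and 278 CPM in NFAT5 KO libraries, and rose by 0.88 ± 0.19 SE (adjusted p = 0.0104). Its near-identical copy Tgtp2 rose by 0.54 ± 0.14 SE (adjusted p = 0.0274), so the split between the 2 is uncertain. Irgm2 rose by 0.60 ± 0.17 SE (adjusted p = 0.039) and Gbp8 also rose. Iigp1 and Tgtp1 kept their calls in all 10 fits with 1 library left out, Tgtp2 only without WT 679_4, NFAT5 KO 678_3 or NFAT5 KO 678_5, Irgm2 only without NFAT5 KO 678_5, and Gbp8 only without NFAT5 KO 678_3 or NFAT5 KO 679_6. With the macrophage covariate none of the 5 passed, and the log2 difference of Gbp8 went from 0.63 to 0.079 (adjusted p = 0.957).

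Among 18 other interferon gamma targets tested, 3 fell and 2 rose, with a median log2 difference of 0.08. Serpina3g, an intracellular serine protease inhibitor, fell from 321 ± 50.8 to 168 ± 35.0 CPM (SD, n = 5 each; -0.94 ± 0.15 SE, adjusted p = 0.00224). Psmb9, a subunit of the immunoproteasome, fell by 0.52 ± 0.11 SE (adjusted p = 0.00819), and Psmb10, another one, also fell, though it kept its call only without WT 678_4 or WT 679_3. Cd274, which encodes PD-L1, rose from 29.4 ± 1.86 to 53.3 ± 12.1 CPM (0.86 ± 0.15 SE, adjusted p = 0.0043). Serpina3g, Psmb9 and Cd274 kept their calls in all 10 fits with 1 library left out, and the other gene that rose was Socs1. The interferon gamma targets outside the GTPases therefore held calls in both directions. With the macrophage covariate no gene of the other type I and interferon gamma lists that had passed still did, and the log2 difference of Psmb10 was -0.23 (adjusted p = 0.786).

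**Figure D5:**
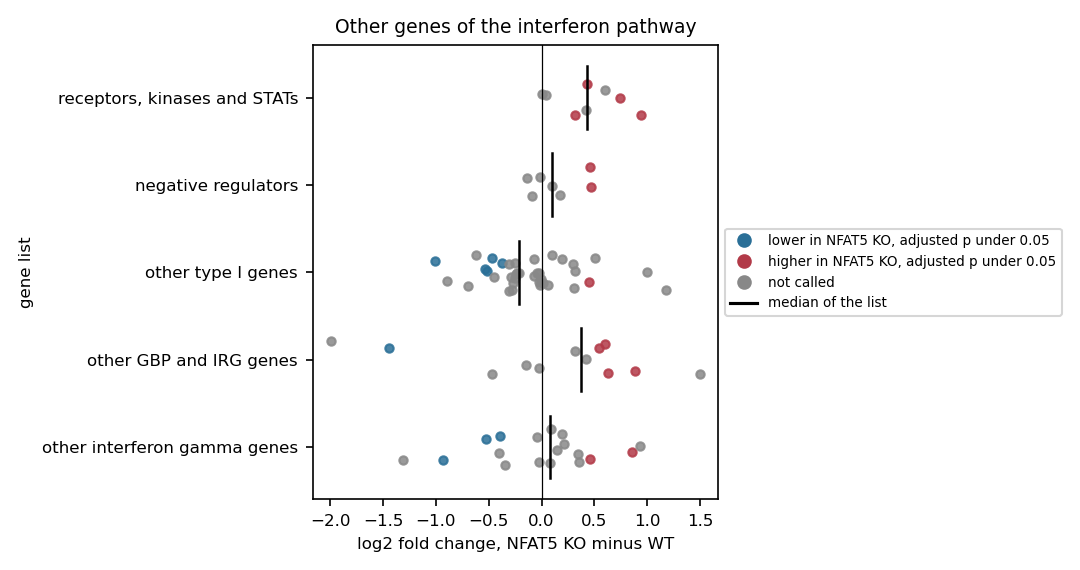
Log2 difference (x axis, NFAT5 KO minus WT) of the tested genes in 5 lists of the interferon pathway, 1 point per gene with vertical jitter; black lines are list medians and colour marks an edgeR adjusted p under 0.05. The 8 receptors, kinases and STATs have a median of 0.43 with 4 genes higher, the 37 other type I genes a median of -0.21 with 5 lower and 1 higher.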

How the data were processed

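RNA-seq of 10 libraries was deposited by the authors as 1 Salmon table per library, with estimated counts, TPM and effective lengths per transcript. The submitters' processing notes name Salmon 0.14.1 and, as builds, GRCm38.p6 and mm10. Annotation release, strand setting and trimming: not given in the sources used here. Of 140919 transcripts, 140045 (99.38%) were assigned to genes with GENCODE M21, and the rest held 0.191% to 0.228% of the counts. Per gene, the estimated counts were added up and rounded to whole numbers, and the deposited TPM were summed per gene for levels per length.

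Genes were filtered with filterByExpr, scaled by TMM and tested with edgeR's quasi-likelihood test (edgeR 4.0.16, R 4.3.3, robust fit, Benjamini-Hochberg adjustment over all 13081 genes tested, threshold 0.05). The SE is the log2 difference divided by the root of the F statistic. CPM are on the scale of that fit, and log2 CPM have a prior count of 2. With totals of 22444310 to 32001285 counts, 3 counts are worth 0.0955 to 0.134 CPM. All pairs of libraries differed by more than sampling noise. The procedure was tested on simulated data. Alternatives were other scalings and filters, a length offset, the label prefix as a block or alone, marker covariates, DESeq2 1.42.0, limma-voom (limma 3.58.1) and leaving out each library. No paired fit was made, since replicate labels are not shared between genotypes.

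The genes and lists were chosen with earlier results of these data known. Values are given in full for the genes past the threshold, the most abundant, and those with the smallest p in each role, and from each pathway list for up to 4 genes past the threshold with the smallest p, plus Ifng and the receptor chains. One gene of the receptor, kinase and STAT list is not reported here and was left out of its counts. Genes named outside this rule were named to complete a count or after their values were seen. Promoter windows are from RefSeq (GRCm38.p6).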

Additional observations from a re-analysis of the deposited data

Results flagged for a closer look

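In 6 of 66 groups of 5 libraries (each gene in each genotype, on the log2 CPM scale), 1 library stood apart from the other 4 by a wide gap. Chance does this in about 1 in 20 groups of independent, normally spread values. These groups share their libraries, and some hold counts of 0, so that rate is only a rough guide. Rsad2 was at 20.8 CPM in WT 679_4 and at 7.18 to 9.50 CPM in the other WT libraries. Ifit3 was at 7.42 CPM in NFAT5 KO 678_3 and at 17.8 to 24.9 CPM in the other NFAT5 KO libraries, and Gbp3 was at 95.2 CPM in that library and at 121 to 130.5 CPM in the others. Oasl1 was at 0 CPM in NFAT5 KO 678_3, with 0.939 to 1.88 CPM in the others, and at 0 CPM in WT 679_3, with 2.19 to 2.90 CPM in the others. Ifi44 was at 1.13 CPM in NFAT5 KO 679_6 and at 0 in the other NFAT5 KO libraries. NFAT5 KO 678_3 thus accounts for 3 of the 6, all low.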

How the results depend on the processing

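The type I count of 4 became 0 in prefix 678 alone, in prefix 679 alone and with the macrophage covariate. The GTPase count of 1 became 0 with library size alone, no low-count filter, the length offset, the prefix as a block, prefix 678 alone and both marker covariates, 3 with a filter of 5 CPM in at least 5 libraries, and 4 with the DESeq2 Wald test and with limma-voom, and ran from 0 to 4 over leave-one-out fits. The count over all genes, 1179, became 0 in prefix 678, 325 in prefix 679, 27 with the macrophage covariate and 1893 with the DESeq2 Wald test, and ran from 696 (without WT 678_2) to 1276 (without WT 678_4). With the prefix as a block the Gbp2 value was 0.40 (adjusted p = 0.0588), and no other gene of the 33 changed its call. The type I median moved to -0.45 with the macrophage covariate and the GTPase median to 0.57 in prefix 679 alone.

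Changes of sign touched only genes that did not pass the test. In prefix 678 alone the log2 difference was -0.039 for Ifit1, -0.109 for Rtp4, -0.074 for Gbp3, -0.275 for Gbp5 and -0.039 for Gbp7, and in prefix 679 alone -0.20 for Stat2 and 0.16 for Ifih1. With the macrophage covariate it was -0.47 for Ifit1, 0.24 for Ifit2, -0.84 for Stat2, -0.23 for Mx1, -0.067 for Oasl2, -0.58 for Usp18, -0.19 for Rtp4, 0.10 for Ifih1, -0.13 for Gbp3, and -0.025 for Gbp4 and for Gbp7. Stat2 was -0.024 with the melanoma covariate and -0.10 with limma-voom, Rtp4 was -0.009 with library size alone, and Gbp4 was -0.042 with the length offset. Over leave-one-out fits Stat2 ran from -0.14 to 0.25, Rtp4 from -0.16 to 0.24 and Zbp1 from -0.166 to 0.011. The cause of these changes was not tested. Fits within 1 prefix have fewer libraries. Low counts limit the precision of Ifi44, Oasl1 and Oasl2, with at most 116 counts in any library.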
